A study of Mus musculus with 44 samples.

Results

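The translation initiation and elongation factor genes are described here in ribosome-bound RNA from amygdala punches, purified by a tag meant for Crh neurons. The members were all rows of the expression table whose symbol begins with Eif and a digit, or with Eef1 or Eef2, apart from Eef1e1, which belongs to the multisynthetase complex. This rule gave 54 of 8203 genes. They comprised 5 genes of the eIF1 family, 5 that deliver initiator tRNA (the eIF2 subunits, Eif2a and Eif2d), the 5 subunits of eIF2B and 1 eIF2 alpha kinase. There were also 13 eIF3 subunits, 11 eIF4 genes, 1 gene for an eIF4E-binding protein and 3 genes that promote or prevent subunit joining (Eif5, Eif5b and Eif6). The rest were 2 eIF5A genes, 5 eEF1 genes, Eef2, 1 methyltransferase of eEF1A and 1 pseudogene. The Eif4ebp genes, Eif2ak2, Eif2ak3, Eif2ak4 and Eef2k are not analysed here.

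RNA was collected by translating ribosome affinity purification (TRAP) from 44 Crh-TRAP mice, each sample being 1 mouse. All mice carried a Crh-Cre transgene and a Cre-dependent eGFP-L10a transgene, both heterozygous, so that Cre under the Crh promoter put a GFP tag on ribosomal protein L10a and an antibody to GFP drew down the RNA on tagged ribosomes. Mice were 10 to 16 weeks old, and bilateral punches of 1 mm were centred on the amygdala. TA mice (n = 16, 10 males and 6 females) heard 5 tones without shock, FC mice (n = 12, 6 males and 6 females) received 5 tones paired with a foot shock of 0.65 mA, and EXT mice (n = 16, 10 males and 6 females) were conditioned in the same way and on the next day heard 30 tones without shock in another context. Tissue was taken 2 h after the last session. EXT mice therefore differed from TA mice in the shock, the extra day, the second context and the number of tones, which cannot be told apart. The tag marks any punched cell in which the Crh promoter has driven Cre, and fewer tagged cells of a type cannot be told apart from less RNA per cell.

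Initiation begins when eIF2 brings initiator tRNA to the small ribosomal subunit, eIF3, eIF1 and eIF1A hold the complex in a scanning state, and the eIF4 factors recruit the capped mRNA and unwind its leader. eIF2B reloads eIF2 with GTP, the step that eIF2 alpha kinases inhibit under stress and that is known to influence long-term memory. In elongation, eEF1A delivers aminoacyl-tRNA, the eEF1B subunits recharge it with GTP, and eEF2 moves the ribosome along the mRNA. The mRNAs of several elongation factors and of nearly all ribosomal proteins are known to begin with a C followed by a run of pyrimidines, through which mTORC1 controls their translation.

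The values are log2 cpm (reads of a gene scaled to the effective library size), and the effective library size was 14649837 to 20440351 reads in TA mice, 13431032 to 19257786 in FC mice and 12802113 to 17805609 in EXT mice. The labels name 5 batches, without saying what a batch was. Batch 1 held 4 TA, 5 FC and 2 EXT mice, batch 2 held 5, 2 and 3, and batch 5 held 7, 5 and 5. Batches 3 and 4 held 6 EXT mice and no others, so that batch and extinction cannot be told apart in these mice. Of 12 GABAergic and central amygdala markers 10 were measured, including Gad1, Gad2 and Crh, whereas Slc32a1 and Crhr1 are not in the table. All 8 astrocyte, 7 of 8 oligodendrocyte, 4 of 8 choroid plexus, 2 of 6 glutamatergic and 0 of 6 microglia markers were measured. In TA mice the summed marker level (log2) had a median of 12.6 for GABAergic and central amygdala and 12.7 for choroid plexus markers. It was 11.7 for oligodendrocyte, 10.2 for astrocyte and 6.30 for glutamatergic markers. Crh alone had a TA median of 5.73 log2 cpm. The 44 samples include no unpurified RNA, so enrichment of Crh neurons cannot be measured.

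Sequence bears on these values in a pair of ways. The first is shared sequence. Eif4a-ps4 (ENSMUSG00000101188.1) is annotated as a processed pseudogene of 1218 bases on chromosome 1 (chr1:60703932-60705149, + strand, GRCm38, GENCODE M21), and it aligned to a transcript of Eif4a1, the eIF4A helicase gene on chromosome 11, over its whole length with 1217 identical bases. The only differing base is in capitals in the 30 bases shown, which are bases 519 to 548 of the pseudogene and 535 to 564 of the Eif4a1 transcript.
Eif4a-ps4: caaatacatcaagatAttcgtactggatga
Eif4a1: caaatacatcaagatGttcgtactggatga
Of the stretches of 50 bases (the read length) in Eif4a-ps4, 95.7% were also present in Eif4a1, so the reads of the pseudogene cannot be told apart from those of Eif4a1, and its values are uncertain. The same share, with any other annotated gene, was 64.3% for Eef1g, 60.6% for Eef1a1 (in 21 other genes), 54.8% for Eif3j1 (39.4% in Eif3j2) and 42.1% for Eif3d. It was 36.2% for Eif2s3x, 33.3% for Eif4a1 (30.0% in Eif4a-ps4), 31.6% for Eif1, 26.2% for Eif3h and 24.4% for Eif4a3. For these genes the counts may depend on how the authors treated reads with several matches. The share takes in every annotated transcript on either strand, so it may include genes that overlap a member at the same place in the genome. For Eif3c the share was 7.6%, for Eef1b2 it was 6.0%, and Eif3f, Eif4h and Eif2b2 shared none.

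The second is the start of the transcript. Promoter windows from RefSeq (250 bases before to 50 after each start, GRCm38) were present for 42 members. A C followed by at least 7 further C or T bases lay within the 50 bases after a start in 9 of these 42 members (21.4%), in 989 of all 6393 genes with a window (15.5%) and in 39 of 60 ribosomal protein genes (65.0%). The search used the transcript strand. Only in Eif3f and Eif2s3x did the tract open at the first transcribed base. They are shown with the tract in capitals, Eif3f from the window chr7:108934165-108934464 (+ strand), Eif2s3x from chrX:94212602-94212901 (- strand), with Eif3l (chr15:79074973-79075272, + strand) and Eif2b2 (chr12:85219231-85219530, + strand), whose tracts began at bases 5 and 6.
Eif3f: CTCTCTTTCTCggcaagatggcttctccgg
Eif2s3x: CTTTTCTCTCCgagcaagatggctgggggt
Eif3l: tccgCTCTCTCCCacgggcttctggagcgc
Eif2b2: gttgaCCTCTCTCggcccggaagtgaaaca
The other members with a tract were Eif3k, Eef1a2, Eif3a, Eif5a and Eif4enif1, each later in the window or at 1 of several starts. No tract was found by this rule in the windows of Eef1a1, Eef1b2 and Eef2, and Eef1g had no window. The rule found a tract in only 39 of 60 ribosomal protein genes, so a gene without a match may still have such a start. A match describes letters in the RefSeq window, and these mice's transcript starts were not measured.

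The members spanned a wide range of levels. Levels between genes were compared per length, as RPKM (cpm per kb of exon), in TA mice. Eif1, the start-site selection factor, was highest, with a median of 845 (lowest 635, highest 992). Eif5a, which helps ribosomes through difficult peptide bonds, followed at 426 (378 to 493), and Eef1a1, the tRNA carrier of elongation, at 361 (225 to 464). The ranges of Eif5a and Eef1a1 overlapped, while every TA mouse had more Eif1 than Eif5a or Eef1a1. Eif1b, a close relative of Eif1, had a median of 249.9 and Eef1akmt1, which methylates eEF1A, 150.4. Eef2 (109), Eif4h (104) and Eif4a2 (103) were neighbours whose ranges overlapped. The lowest members were the scaffold Eif4g3 (3.58), Eif5b (4.75), Eif2b3 (4.88) and the scaffold Eif4g1 (5.09).

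Paralogs differed in level. Eef1a2, the eEF1A form known from adult neurons and muscle, had a median of 6.61 (4.33 to 24.3) and lay far below Eef1a1 in all TA mice. Eif4a2, the eIF4A form that predominates in brain, and Eif4a1 had medians of 103 and 78.8, with overlapping ranges. Of the scaffolds, Eif4g2, which lacks the eIF4E binding site, had a median of 67.4 (59.4 to 85.0), above the highest TA value of Eif4g1 (9.54) and of Eif4g3 (6.07). The cap-binding protein Eif4e (79.4) lay above its relatives Eif4e2 (13.1) and Eif4e3 (7.67). Within eIF3, whose subunits form a single complex, the medians ran from 94.8 for Eif3g and 86.3 for Eif3h to 7.71 for Eif3d and 5.17 for Eif3j1. Stretches of the read length were shared with other genes at 54.8% for Eif3j1, 42.1% for Eif3d and 26.2% for Eif3h, but not for Eif3g. The part of reads with several matches in the low medians of Eif3j1 and Eif3d was not tested. The length used was that of all annotated exons of a gene. It was 4968 bases for Eif3d, whose longest transcript has 2546, and 5830 for Eif3j1, whose longest has 5413. For Eif3g these lengths were 1984 and 1101.

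**Figure D1:**
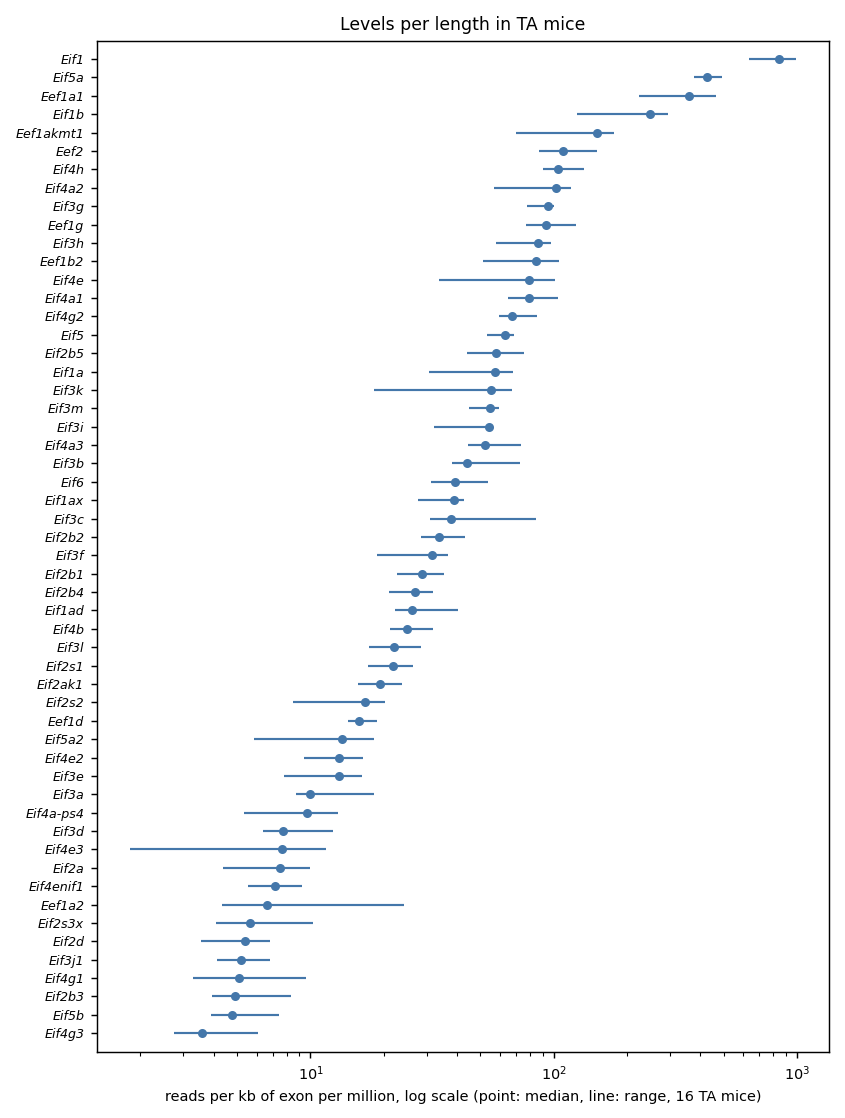
Levels of the 54 members in 16 TA mice, as RPKM on a log axis, with the median as a point and the lowest to highest mouse as a line. Eif1 was highest with a median of 845 and Eif4g3 lowest with a median of 3.58.

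In EXT vs. TA (n = 16 and 16), the factors did not move as a group. The fit was made in limma on the log2 values, with terms for sex and for batch number taken as a number, and p values were adjusted over all 8203 genes by the method of Benjamini and Hochberg. In this fit 15 of 54 members were FDR-significant at 0.05, against 21.4% of all genes (1755). Of these 15, 5 were higher after extinction (all genes: 10.4%) and 10 were lower (all genes: 11%). The higher ones were Eef1a1, Eif3f, Eef1g, Eef1b2 and Eif3j1, and the lower ones Eif3c, Eif2s1, Eif4a-ps4, Eif4h, Eif2b2, Eif4a3, Eif3g, Eif3d, Eif4a1 and Eif2b4. Over all 54 members the median log2 difference was 0.003, with 27 members above and 27 below 0, beside a median of 0.005 over all genes. At an unadjusted p under 0.05 there were 27 members, 11 higher and 16 lower, against 37.8% of all genes (19.1% higher and 18.7% lower).

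The coding of batch decided these calls. Coded as categories, batch leaves a contrast of EXT and TA mice within batches 1, 2 and 5 alone. In that fit 0 members and 0.0244% of all genes (2) were FDR-significant in limma, and 9 members (6 higher and 3 lower) had an unadjusted p under 0.05, against 21.1% of all genes (10.2% higher and 11% lower). All 15 differences kept their sign and became smaller, the median size falling from 0.40 to 0.22 on the log2 scale, and 5 of the 15 (Eef1b2, Eif3d, Eif3c, Eif3f and Eif4a-ps4) had an unadjusted p under 0.05. Each difference below is therefore given with batch as a number and then with batch as categories. With log2 library size as a covariate 0 members and 0 of all genes were FDR-significant, and 3 members had an unadjusted p under 0.05, against 5.47% of all genes. EXT libraries were smaller, with a median of 15412341 reads against 18015590.5 in TA mice, and the part of library size in these differences was not tested further.

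**Figure D2:**
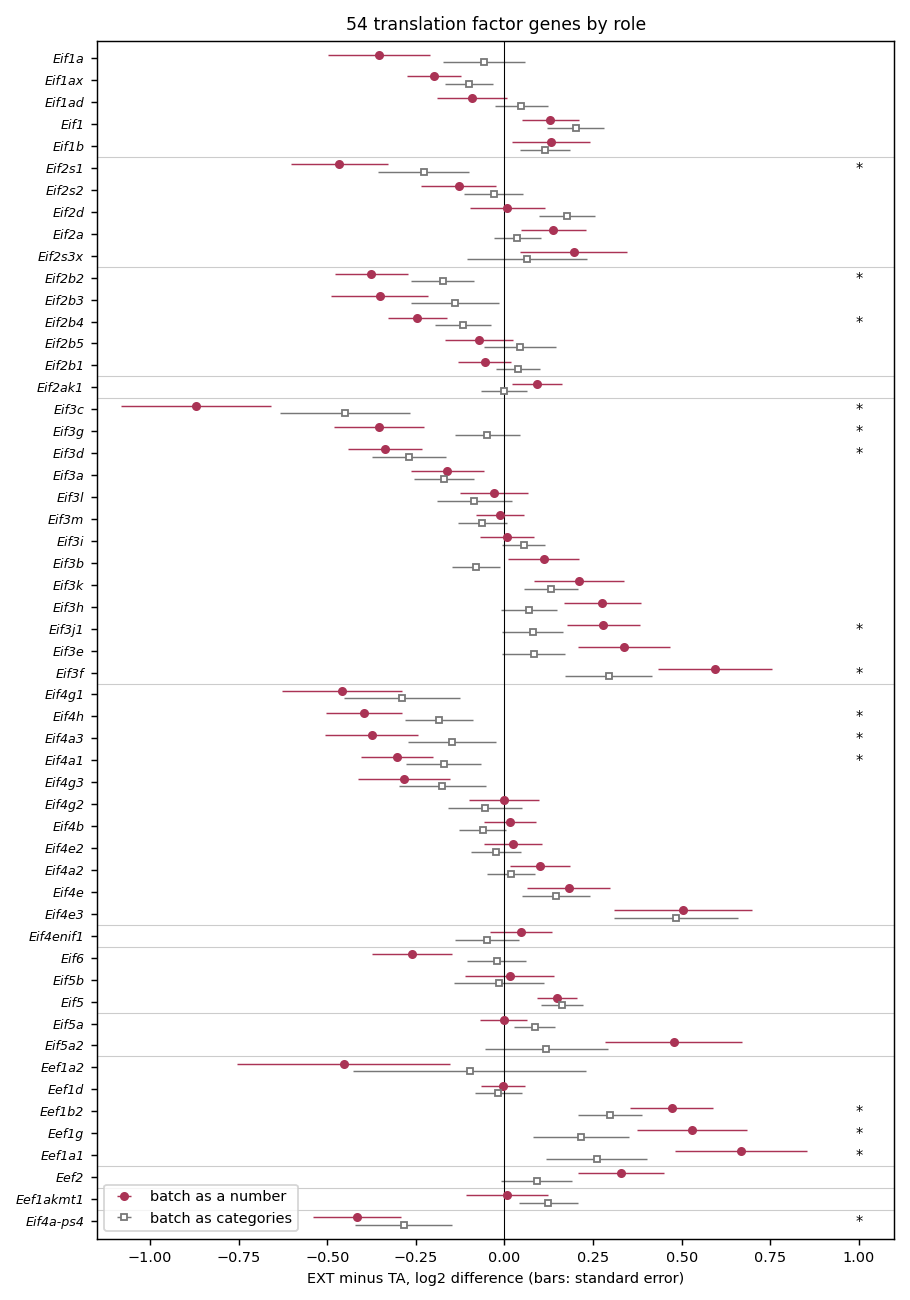
Log2 difference of EXT minus TA (x axis) with its standard error for the 54 members in order of role (grey lines part the roles), with batch as a number (filled) and as categories (open squares). Stars mark the 15 FDR-significant members; eEF1 and eIF3 subunits lie furthest to the right and Eif3c (-0.87) furthest to the left.

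The eEF1 genes held 3 of the 5 higher members, while 10.4% of all genes were FDR-significantly higher. Eef1a1 ranged from 9.13 to 10.18 with a median of 9.82 in TA mice, from 8.81 to 11.06 with a median of 9.80 in FC mice, and from 9.12 to 11.43 with a median of 10.13 in EXT mice (log2 cpm). Of 16 EXT mice, 14 lay above the TA median and 7 above every TA mouse, and 1 lay below every TA mouse. The difference was 0.67 ± 0.19 (standard error, FDR = 0.0169), 1.59-fold, and 0.26 (FDR = 0.289) with batch as categories.

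Eef1g and Eef1b2 encode the gamma and the exchange subunit of eEF1B. Eef1g ran from 7.64 to 8.33 (median 7.92) in TA, 7.80 to 8.66 (median 7.96) in FC and 7.78 to 9.35 (median 8.13) in EXT mice. Again 7 EXT mice exceeded all TA mice, and the difference was 0.53 ± 0.16 (limma FDR = 0.0193), or 0.22 (FDR = 0.358) with batch as categories. Eef1b2 ran from 7.02 to 8.05 (median 7.75) in TA, 6.90 to 8.54 (median 7.83) in FC and 7.25 to 8.77 (median 8.23) in EXT mice. It had 10 of 16 EXT mice above every TA mouse, the difference being 0.47 ± 0.12 (limma FDR = 0.013), 1.39-fold, or 0.30 (unadjusted p = 0.00248, FDR = 0.143) with batch as categories. The remaining eEF1 genes were not FDR-significant. Eef1d, the other exchange subunit, differed by -0.004 and Eef1a2 by -0.45 ± 0.30 (limma FDR = 0.266; -0.10 with batch as categories), and Eef1a2 had the widest EXT range of the eEF1 genes, from 2.74 to 5.82.

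Eef2, the translocase, fell just outside the threshold. Its values ran from 8.18 to 8.97 (median 8.51) in TA, 8.27 to 9.11 (median 8.68) in FC and 8.30 to 9.48 (median 8.69) in EXT mice, a difference of 0.33 ± 0.12 (limma FDR = 0.0502), or 0.09 with batch as categories. Of 16 EXT mice, 7 were above every TA mouse and 0 below. Eif5a differed by -0.003 ± 0.07, and its range in EXT mice (9.59 to 10.30, median 10.00) enclosed that in TA mice (9.81 to 10.20, median 9.99). Its paralog Eif5a2 differed by 0.48 ± 0.19 (limma FDR = 0.0696; 0.12 with batch as categories).

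The eIF3 complex held calls in both directions, as did all genes. Of its 13 subunits 2 were FDR-significantly higher (Eif3f and Eif3j1), against 10.4% of all genes. Lower were 3 (Eif3c, Eif3g and Eif3d), against 11% of all genes, and 8 did not pass. With batch as categories no subunit was FDR-significant. Eif3c, a core subunit, showed the largest difference of all 54 members. It ran from 6.76 to 8.21 (median 7.06) in TA, 6.10 to 7.60 (median 6.91) in FC and 4.87 to 7.36 (median 6.44) in EXT mice. The TA median exceeded 13 of 16 EXT mice, and 10 EXT mice lay below every TA mouse. The difference was -0.87 ± 0.21 (limma FDR = 0.013), 45.3% lower on the linear scale, and -0.45 (unadjusted p = 0.020, FDR = 0.173) with batch as categories.

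Eif3f, which encodes a subunit with an MPN domain, moved the other way. Its TA values ran from 5.76 to 6.74 (median 6.52), its FC values from 6.02 to 7.32 (median 6.63) and its EXT values from 6.05 to 7.90 (median 6.73), with 8 EXT mice above all TA mice. The difference was 0.59 ± 0.16 (limma FDR = 0.0162), 1.51-fold, and 0.29 (unadjusted p = 0.0236, FDR = 0.178) with batch as categories. Its pyrimidine tract, shown above, opens at the RefSeq start, as does that of Eif2s3x, which differed by 0.20 ± 0.15 (limma FDR = 0.344). Eif3j1, for the loosely bound eIF3j, ran from 4.60 to 5.31 (median 4.92) in TA, 4.78 to 5.45 (median 5.05) in FC and 4.71 to 5.79 (median 5.16) in EXT mice. Its difference was 0.28 ± 0.10 (limma FDR = 0.0489), the closest to the threshold among those inside it, or 0.08 (FDR = 0.613) with batch as categories. The call was also lost with no batch term (FDR = 0.0743), voom weights (FDR = 0.051) and trended and robust eBayes (FDR = 0.0502).

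Among the lower eIF3 subunits, Eif3d, a cap-binding subunit of eIF3, ran from 4.99 to 5.94 (median 5.26) in TA, 4.68 to 5.69 (median 5.24) in FC and 4.44 to 5.40 (median 5.02) in EXT mice, with 7 EXT mice below all TA mice. Its difference of -0.34 ± 0.10 (limma FDR = 0.0241) was -0.27 (unadjusted p = 0.0157, FDR = 0.164) with batch as categories. Eif3g, which binds RNA during scanning, differed by -0.35 ± 0.13 (limma FDR = 0.0455), but by -0.05 with batch as categories, and its call was lost with median-centred mice (FDR = 0.0504). The 8 other subunits differed by -0.16 (Eif3a) to 0.34 (Eif3e). Eif3e (0.34 ± 0.13, limma FDR = 0.059) and Eif3h (0.28 ± 0.11, limma FDR = 0.0621) had an unadjusted p under 0.05.

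Of the 5 genes that deliver initiator tRNA 1 was FDR-significant, and it was lower (all genes: 11% lower). Eif2s1, which encodes the alpha subunit of eIF2 that the stress kinases phosphorylate, ran from 6.41 to 7.04 (median 6.76) in TA, 6.33 to 7.13 (median 6.68) in FC and 5.43 to 6.93 (median 6.42) in EXT mice. Of 16 EXT mice 8 were below every TA mouse and none above. The difference was -0.47 ± 0.14 (limma FDR = 0.0193), 27.6% lower, and -0.23 (FDR = 0.302) with batch as categories. The other eIF2 subunits did not pass, with -0.13 ± 0.11 for the beta subunit gene Eif2s2 and 0.20 ± 0.15 for the gamma subunit gene Eif2s3x.

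All 5 eIF2B genes had a difference below 0 with batch as a number, beside 4037 of all 8203 genes. Of the 5, 2 were FDR-significant (all genes: 11% lower). With batch as categories Eif2b1 and Eif2b5 lay at 0.04. Eif2b2, for the beta subunit, ran from 5.75 to 6.35 (median 5.99) in TA, 5.24 to 6.37 (median 5.91) in FC and 4.90 to 6.28 (median 5.59) in EXT mice. It had 10 of 16 EXT mice below every TA mouse and a difference of -0.38 ± 0.10 (limma FDR = 0.0168), or -0.17 (FDR = 0.258) with batch as categories. Eif2b4, for the delta subunit, differed by -0.25 ± 0.08 (limma FDR = 0.034; -0.12 with batch as categories), and the TA median exceeded 15 of 16 EXT mice. Eif2b3 differed by -0.35 ± 0.14 (limma FDR = 0.0596), Eif2b5, for the catalytic subunit, by -0.07 ± 0.10 and Eif2b1 by -0.06 ± 0.07. The 1 kinase measured, the heme-regulated Eif2ak1, differed by 0.09 ± 0.07 (limma FDR = 0.345) and by less than 0.001 below 0 with batch as categories.

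Of the 11 eIF4 genes 3 were lower (all genes: 11%) and 0 higher (all genes: 10.4%) at FDR 0.05. Eif4h, a cofactor that stimulates the eIF4A helicase, ran from 8.97 to 9.53 (median 9.17) in TA, 8.83 to 9.60 (median 9.13) in FC and 8.18 to 9.23 (median 8.97) in EXT mice. With 8 EXT mice below all TA mice, it differed by -0.40 ± 0.11 (limma FDR = 0.0166), or -0.19 (FDR = 0.263) with batch as categories. Eif4a1 differed by -0.30 ± 0.10 (limma FDR = 0.0329; -0.17 with batch as categories). The TA range of Eif4a1 was 8.14 to 8.82 and its EXT range 7.67 to 8.74, with 8 EXT mice below all TA mice. Its pseudogene Eif4a-ps4, which shares its sequence, ran from 2.71 to 3.99 (median 3.56) in TA, 3.06 to 3.90 (median 3.41) in FC and 2.54 to 3.65 (median 3.12) in EXT mice and differed by -0.42 ± 0.13 (limma FDR = 0.0211; -0.28 with batch as categories). It is no independent count beside Eif4a1. Eif4a3, the helicase of the exon junction complex, differed by -0.37 ± 0.13 (limma FDR = 0.0404; -0.15 with batch as categories).

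The paralog Eif4a2 did not pass, at 0.10 ± 0.08, and its EXT median of 9.10 equalled the TA median at this precision. The scaffolds Eif4g1 (-0.46 ± 0.17, limma FDR = 0.0502) and Eif4g3 (-0.28 ± 0.13, limma FDR = 0.106) lay below 0, and Eif4g2 at -0.001 ± 0.10. Eif4e differed by 0.18 ± 0.12 (limma FDR = 0.254), Eif4e2 by 0.02 and Eif4e3 by 0.50 ± 0.19 (limma FDR = 0.0582). Eif4e3 was the eIF4 gene whose difference changed least with the coding of batch, being 0.48 (unadjusted p = 0.00945, FDR = 0.149) with categories. Eif4b differed by 0.02, and Eif4enif1, which carries eIF4E into the nucleus and represses translation, by 0.05.

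None of the 5 eIF1 family genes and none of Eif5, Eif5b and Eif6 passed at FDR 0.05 in limma (all genes: 21.4%). Of these 8, 4 had an unadjusted p under 0.05 (all genes: 37.8%). Eif1 differed by 0.13 ± 0.08 with batch as a number and 0.20 (unadjusted p = 0.0173, FDR = 0.165) with categories, 13 of 16 EXT mice lying above the TA median. Eif1a (-0.35 ± 0.14) and its X-linked relative Eif1ax (-0.20 ± 0.08) had FDR values of 0.0709 and 0.0563. Eif5, the GTPase activator of eIF2, differed by 0.15 ± 0.06 (limma FDR = 0.0548), and by 0.16 (unadjusted p = 0.0112, FDR = 0.155) with categories, with 10 of 16 EXT mice above every TA mouse. Eif6, which keeps the ribosomal subunits apart, differed by -0.26 ± 0.11 (limma FDR = 0.0915) and by -0.02 with categories.

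**Figure D3:**
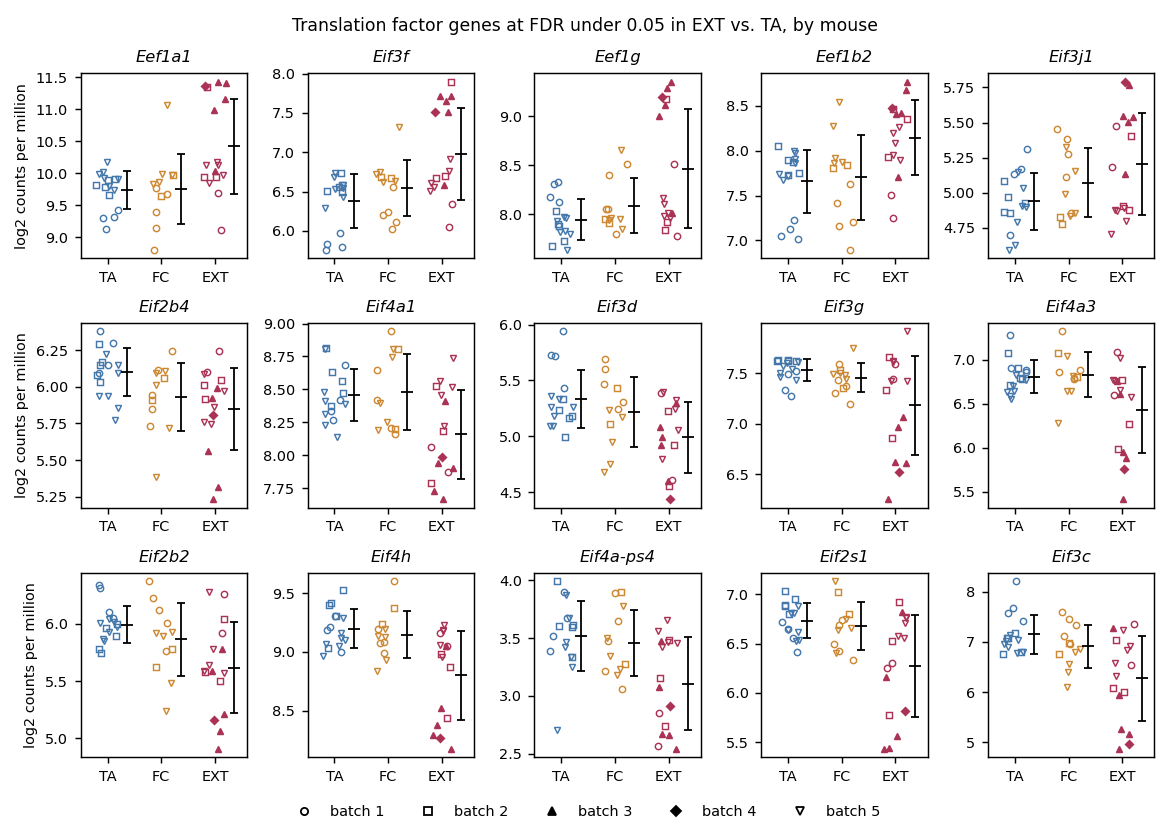
Log2 cpm (y axis) of the 15 FDR-significant members in each of 44 mice by group, with the marker giving the batch (filled for batches 3 and 4, EXT mice only) and the bar the mean ± SD. In Eef1a1, 5 of the 6 filled points lie near the top of the EXT mice and 1 at 10.04 lies with the mice of other batches.

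The EXT mice of batches 3 and 4 entered the fit that chose the 15 members, so their place in these genes is a description. Their mean lay further in the direction of the difference than that of the other 10 EXT mice in all 15 members, and in 42 of all 54 members. For Eef1a1 the 6 mice had a mean of 11.06 and the other EXT mice 10.03, and for Eif3c the means were 5.58 and 6.69. These 6 mice were not uniform. In Eef1a1, 5 of them had values of 10.99 to 11.43 and 1 mouse of batch 3 had 10.04, and in Eif3c the same mouse had 7.27 while the others had 4.87 to 5.94. The part of batch in these differences was not tested, because batches 3 and 4 hold no TA mice.

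Inside the batches that held both groups, all 15 members had the sign of the overall difference in batch 2, whereas batch 1 showed it for 13 members and batch 5 for 9. It held in all 3 batches for 8 members. Of all 54 members, batch 2 showed the sign for 41, batch 1 for 40 and batch 5 for 34, while 19 kept it across these batches, and the 15 were chosen on a difference that these mice helped to make. The 8 were Eef1a1, Eif3f, Eef1b2, Eif3c, Eif2s1, Eif3d, Eif2b2 and Eif2b4. Eef1b2 differed by 0.27, 0.39 and 0.24 in batches 1, 2 and 5, the most even of the higher genes. Eif3f differed by 0.35, 0.51 and 0.13, and Eef1a1 by 0.11, 0.60 and 0.12. Among the lower genes Eif2b2 was even, with -0.11, -0.17 and -0.19, whereas Eif3c ran -0.76, -0.61 and -0.17 and Eif2s1 -0.31, -0.50 and -0.01. Eif4a1 and Eif4a-ps4 were lower in batches 1 and 2 (-0.46 and -0.41, and -0.91 and -0.50) and higher in batch 5 (0.10 and 0.13). With 2, 3 and 5 EXT mice, these within-batch values are given without a test, and a mouse with an extreme value weighs heavily in them. Among the EXT mice of batches 1, 2 and 5 the highest value of Eef1a1 was 11.35 (median 9.96). It was 9.18 for Eef1g (median 8.00) and 7.90 for Eif3f (median 6.64), whereas Eef1b2 reached 8.46 (median 8.02). Leaving out batches 3 and 4 gave 0 FDR-significant members in limma, against 0.0366% of all genes (3), and 10 at an unadjusted p under 0.05, against 18.8% of all genes.

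**Figure D4:**
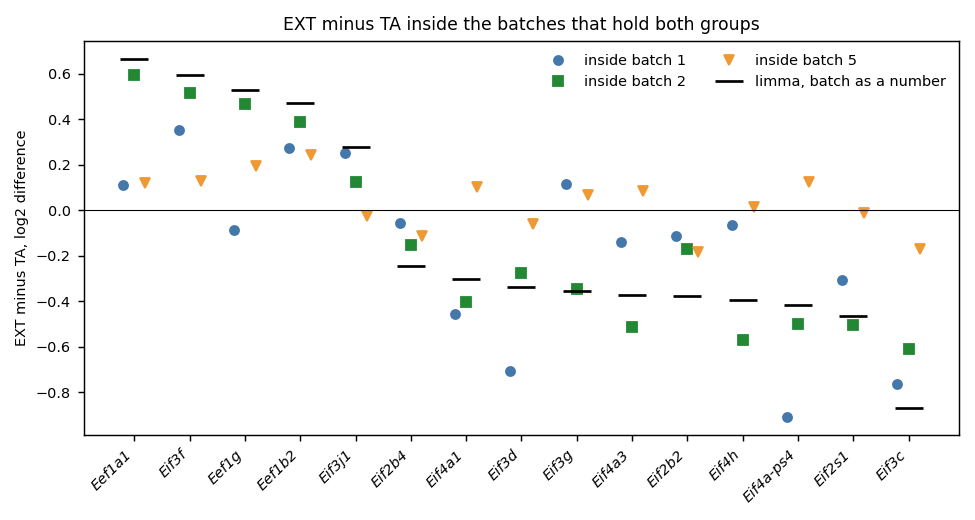
EXT minus TA (log2, y axis) of the 15 FDR-significant members (x axis) inside batch 1 (circles), batch 2 (squares) and batch 5 (triangles), with the limma estimate with batch as a number as a bar. Batch 2 has the sign of the bar for all 15 members and batch 5 for 9; Eif2b2 and Eef1b2 lie close together in all 3 batches.

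Members also differed in how they varied between mice together with ribosomal protein genes. After removal of batch, group and sex, the correlation with the mean of 80 ribosomal protein genes over 44 mice (Rpl10a left out because of the transgene) was 0.88 for Eef1a1, 0.84 for Eef1g, 0.80 for Eef1b2, 0.79 for Eif3h, 0.73 for Eif3f, 0.71 for Eif1, 0.69 for Eef2, 0.65 for Eif3e and 0.62 for Eif3j1. It was above 0.5 in 11 of 54 members, against 8.99% of all other genes. All 5 FDR-significantly higher members were among these 11. The lowest values were those of Eif2b2 (-0.50), Eif4h (-0.48) and Eif1ax (-0.48). All values share libraries and depth, and the same members correlated with log2 library size at -0.43 (Eef1a1), -0.48 (Eef1g) and -0.45 (Eef1b2). Ribosomal protein genes themselves had 54 of 80 FDR-significantly higher (all genes: 10.4%) and 0 lower (all genes: 11%) in EXT vs. TA. Their median log2 difference was 0.48, or 0.28 with batch as categories. Across the 54 members the difference was little related to transcript length (Spearman's rho 0.025) or GC content (-0.247), beside 0.045 and -0.076 over the 8005 genes with a length.

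FC vs. TA (n = 12 and 16) compares mice given tones with shock and mice given tones alone, so that shock and its pairing with the tone cannot be told apart. In this contrast 0 members and 0% of all genes were FDR-significant in limma. At an unadjusted p under 0.05 there were 7 members, 1 higher (Eif3f) and 6 lower (Eif4g1, Eif3c, Eif4b, Eif2b4, Eif4g3 and Eef1a2), against 10.4% of all genes (4.22% higher and 6.18% lower). With batch as categories there were 12, against 16.8% of all genes, and again 0 FDR-significant. This contrast shares its TA mice with EXT vs. TA, so its values are not independent of those above.

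Eif4g1, the scaffold that joins the cap-binding protein to eIF3, had the smallest p among the members. It ran from 4.58 to 6.12 (median 5.22) in TA, 3.90 to 6.06 (median 5.01) in FC and 3.51 to 6.10 (median 4.92) in EXT mice, with 5 of 12 FC mice below every TA mouse and none above. The FC minus TA difference was -0.45 ± 0.12 (unadjusted p = 0.0011, limma FDR = 0.303), and -0.49 ± 0.12 (FDR = 0.0904) with batch as categories. Inside batches 1, 2 and 5 it was -0.34, -0.08 and -0.80. Eif4g3 had -0.23 ± 0.11 with batch as a number and -0.30 ± 0.07 (limma FDR = 0.0904) with categories. Eif3c differed by -0.29 ± 0.11 (limma FDR = 0.388), with -0.42, -0.12 and -0.40 inside the 3 batches, and Eif4b, the RNA-binding partner of eIF4A, by -0.19 ± 0.08 (limma FDR = 0.406). Set beside them, the FC minus TA differences of higher EXT members were 0.22 for Eif3f, 0.12 for Eef1g, 0.09 for Eef1b2 and 0.08 for Eef1a1. For Eif3j1, the remaining higher EXT member, the plain mean was 5.07 in FC and 4.94 in TA mice (log2 cpm).

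EXT vs. FC (n = 16 and 12) likewise gave 0 FDR-significant members and 0% of all genes in limma. There were 14 members at an unadjusted p under 0.05, 6 higher and 8 lower, against 19.3% of all genes (11% higher and 8.35% lower), and 0 with batch as categories, against 4.19%. The smallest p values were those of Eif4a-ps4 (-0.39 ± 0.13), Eif4a1 (-0.36 ± 0.12) and Eif2s1 (-0.43 ± 0.16), all with a limma FDR of 0.219. For Eif4a1 the FC range was 8.16 to 8.94, overlapping the EXT range of 7.67 to 8.74.

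Females and males (n = 18 and 26) were compared over all groups with group and batch number in the fit. Sex was spread unevenly over the batches, as batch 1 held mostly females and batch 2 mostly males. Sex and batch are therefore partly confounded. In limma 0 members and 0% of all genes were FDR-significant, and at an unadjusted p under 0.05 stood 11 members, of which 5 were higher in females and 6 lower, against 12.3% of all genes (5.06% higher and 7.19% lower). With no batch term 8 members were FDR-significant, against 7.28% of all genes. With batch as categories 0 members had an unadjusted p under 0.05, against 4.13% of all genes. The smallest p values were those of Eef1akmt1 (-0.26 ± 0.10, limma FDR = 0.332), Eif4g1 (0.36 ± 0.15, limma FDR = 0.347) and Eif4e (-0.25 ± 0.10, limma FDR = 0.347), which became -0.09, 0.19 and -0.04 with categories. In TA mice the batch 1 and batch 2 means of Eef1akmt1 were 6.14 and 7.19 (log2 cpm). They were 5.89 and 5.18 for Eif4g1, and 8.04 and 9.07 for Eif4e. The part of batch in these sex differences was not tested further.

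Eif2s3x, on the X chromosome, is known to escape X inactivation in mice. It ran from 3.80 to 5.72 (median 4.73, mean 4.79 ± 0.52 SD) in the 18 females and from 3.96 to 5.29 (median 4.41, mean 4.57 ± 0.37 SD) in the 26 males. The ranges overlapped, with 3 of 18 females above all males and the lowest mouse of all a female. The difference was 0.31 ± 0.13 (unadjusted p = 0.0257, limma FDR = 0.354), and 0.27 ± 0.14 with batch as categories. Of its stretches of 50 bases, 36.2% also occur in the annotated gene Gm2223, and the sex labels were not checked in another way. A test of whether EXT minus TA differed between the sexes gave 0 FDR-significant members (0% of all genes) in limma and 1 at an unadjusted p under 0.05, against 4.13% of all genes. That member was Eif2b5, with -0.26 in males and 0.24 in females, a difference of 0.50 ± 0.18 (limma FDR = 0.998).

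**Figure D5:**
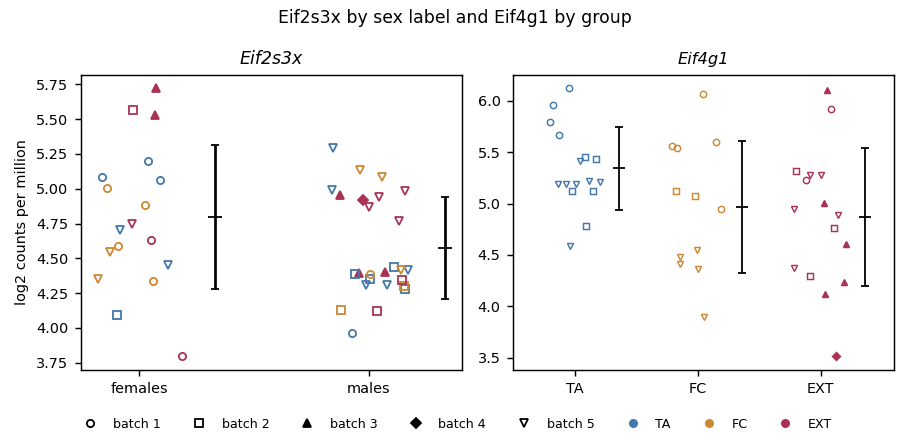
Log2 cpm (y axis) of Eif2s3x by sex label, coloured by group, and of Eif4g1 by group, in each mouse, with the marker giving the batch and the bar the mean ± SD. Of 18 females 3 lie above all males in Eif2s3x, and 5 of 12 FC mice lie below all TA mice in Eif4g1.

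Other translation genes gave a context for EXT vs. TA. Of 54 genes in lists of termination factors, poly(A)-binding proteins, mTORC1 components, other initiation regulators, modification enzymes and mitochondrial factors, 45 were measured. Of these, 4 were FDR-significantly higher (all genes: 10.4%) and 8 lower (all genes: 11%). With batch as categories 0 were FDR-significant, against 0.0244% of all genes, and all 12 kept their sign. Pabpc1, the poly(A)-binding protein that contacts eIF4G, differed most of these, by 1.03 ± 0.24 (limma FDR = 0.013), 2.04-fold, or 0.49 with batch as categories. Its TA range was 4.76 to 5.74 and its EXT range 5.27 to 7.60. The others higher were Ddit3, a stress response factor downstream of eIF2 alpha phosphorylation (0.61), the S6 kinase Rps6kb1 (0.34) and Denr (0.29). Lower were Abcf1 (-0.68), the release factors Gspt1 (-0.61) and Gspt2 (-0.58), the mitochondrial elongation factors Tufm (-0.58) and Gfm1 (-0.39), the helicases Ddx3x (-0.49) and Dhx29 (-0.40), and Mlst8 of mTORC1 (-0.27). The 7 measured enzymes that modify eIF5A and eEF2 held 0 calls.

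Cell type markers were compared in the same contrast, and the FDR-significant ones were GABAergic and central amygdala markers and 1 astrocyte marker. Of 10 GABAergic and central amygdala markers 5 were FDR-significantly lower (Crh, Pdyn, Sst, Gad1 and Gad2) and 0 higher in limma. Of all genes 11% were lower and 10.4% higher. The median log2 difference of the 10 markers was -0.61, or -0.21 with batch as categories. Their summed level ran from 11.9 to 13.0 in TA and from 10.8 to 13.3 in EXT mice (log2). Of 8 astrocyte markers 1 was higher (Slc1a2), with summed levels of 9.31 to 11.3 in TA and 9.87 to 11.6 in EXT mice. Their median difference was 0.30, or -0.05 with batch as categories. None of 7 oligodendrocyte markers (median difference 0.17, or -0.12 with categories), none of 2 glutamatergic markers (0.17, or -0.22) and none of 4 choroid plexus markers passed. The choroid plexus markers had the largest median difference, -1.13, or -0.45 with categories, and their summed level ran from 7.55 to 14.7 (median 12.7) in TA and from 7.54 to 15.6 (median 11.3) in EXT mice. The part of these cell types in the differences of the translation factors was not tested.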

How the data were processed

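Per the labels, RNA was sequenced as pairs of 50 bases from single mice. The authors used Trimmomatic 0.36 for trimming, STAR for mapping (GRCm38), SAMtools for sorting and edgeR for the gene counts, required over 4 cpm in every sample, and deposited the log2 cpm values of limma voom. The handling of strand and of reads with several matches is not given in the sources used here. Whole reads and library sizes were recovered from all 360932 deposited log2 values (within 0.02 of a whole read, with an offset of 0.5), and the lowest count was 28 reads. By the recovered library sizes 59 genes, none of them a member, lay at or under 4 cpm in some mouse, the lowest at 1.42 cpm, so the stated filter does not hold on this scale. Errors between mice include counting error.

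Groups, sex and batch came from the labels. Differences were tested on the deposited values in limma (version 3.58.1, R 4.3.3) by lmFit and eBayes, two-sided, and the fit was tested on simulated data. The study names control for batch and sex but not how batch was coded. Named were all FDR-significant members, with group values for at most 6 in each direction, the 3 smallest p values of other contrasts, a list of members named whatever their result, and FDR-significant genes of the other translation lists. Members, lists and tests were chosen with earlier results of these data known. Levels per length used GENCODE M21 exons, and promoter windows came from RefSeq. Other members given with values were added after their values were seen. Other steps ran in Python 3.11.15 (pandas 2.3.3, numpy 2.4.6, scipy 1.17.1).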

Additional observations from a re-analysis of the deposited data

How the results depend on the processing

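The count of FDR-significant members in EXT vs. TA went from 15 to 0 with batch as categories, without batches 3 and 4, with a library size covariate, and with library size and categories together, where all genes went from 1755 to 2, 3, 0 and 0; the cause was not tested. It was 15 to 21 with no batch term, a fit of all 3 groups, a mean log2 value of at least 5 (49 members tested), median-centred or quantile-normalized mice, an offset of 2 reads, voom weights, and trended and robust eBayes, where 19.7% to 27.1% of the genes tested were FDR-significant. Eif3j1 lost its call in 3 of these settings and Eif3g in 1. Females vs. males gave 8 members instead of 0 with no batch term, against 7.28% of all genes; FC vs. TA, EXT vs. FC and the sex by EXT interaction stayed at 0 under all alternatives run. Over all 54 members the sign turned in 10 with categories, 10 without batches 3 and 4, 6 with library size, 15 with library size and categories together, 4 with quantile-normalized mice and 0 in the other settings. Of the 26 members followed one by one, with library size and categories together it turned for Eif3g (0.0207), Eef1a2 (0.0276), Eef2 (-0.0408), Eif6 (0.0412), Eif2ak1 (-0.0345) and Eif5a (0.0700); Eif2ak1 also turned with categories (-0.000677) and without batches 3 and 4 (-0.00492), and Eif5a with categories (0.0850), without batches 3 and 4 (0.0787) and with library size (0.000815). Of these only Eif3g was FDR-significant. No paired analysis was possible because each mouse belongs to 1 group and the labels give no numbers that pair mice; the fit with batch as categories is the one that compares mice within batches. Batches 3 and 4 hold EXT mice only, so no fit separates them from extinction.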
